A study of Mus musculus with 4 samples.

Results

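The genes examined here encode the subunits of the oxidative phosphorylation machinery, from both the mitochondrial and the nuclear genome. They were taken by symbol: the mitochondrial mt-Nd, mt-Co, mt-Cytb and mt-Atp genes, the nuclear Ndufa, Ndufb, Ndufc, Ndufs, Ndufv, Uqcr, Cox4i, Cox5, Cox6, Cox7, Cox8 and Atp5 genes, and Sdha to Sdhd. Cox6a2, the Ndufaf assembly factors and symbols ending in -ps were left out. This gave 95 of the 16673 genes in the deposited table, 13 mitochondrial and 82 nuclear. The nuclear genes fall to complex I (38), complex II (4), complex III (8), complex IV (15) and complex V (17), and the mitochondrial ones to complex I (7), complex III (1), complex IV (3) and complex V (2). All 95 passed the filter of a mean of at least 10 normalized counts. Complexes follow the symbols, so Ndufa4, now regarded as a complex IV subunit, is counted with complex I.

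RNA was sequenced from Lin– bone marrow cells, the immature fraction left when cells with mature lineage markers are removed, of mice aged 2 months. The control group was Tet3F/F, with floxed Tet3 alleles and no Cre (2 mice). The other group, labelled cKO, was Tie2+/cre; Tet3F/F (2 mice), in which the Tie2 (Tek) promoter, active in endothelial cells and early blood progenitors, drives Cre. Both groups thus carry the floxed alleles, and each library is 1 mouse.

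Oxidative phosphorylation passes electrons from NADH through complex I, or from succinate through complex II, by way of ubiquinone to complex III, cytochrome c and complex IV, where oxygen is reduced. Complexes I, III and IV pump protons across the inner mitochondrial membrane, and complex V, the ATP synthase, uses that gradient to make ATP. Mitochondrial DNA encodes only some of the membrane-embedded subunits of complexes I, III, IV and V, and is transcribed into long precursors that are cut into single RNAs. All other subunits, and the whole of complex II, come from nuclear genes, many with binding sites for NRF1 and ETS-family factors near their start sites. Quiescent blood stem cells are known for low respiration, which increases as progenitors divide and differentiate.

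The libraries held 39199593 and 46673855 gene-assigned reads (control replicates 1 and 2) and 28845037 and 30020188 (cKO replicates 1 and 2). Tet3 was not lower in the libraries labelled cKO (5056 and 6593 against 6400 and 5084 normalized counts), so directions below are those of the labels. A count over the whole gene may include exons outside the floxed part. Xist was near 0 in both control libraries and high in both cKO libraries, and 4 Y-linked genes had 0 reads in both cKO libraries, so sex and genotype cannot be told apart. Progenitor markers were present in all 4 libraries (9 of 9, Kit between 10915 and 14050 normalized counts), but their summed level was 407102 and 142200 in the control and 317738 and 330894 in the cKO libraries, mostly Mpo (343617 and 82908 against 247093 and 263946). Erythroid markers were highest in control replicate 2 (12 of 12 genes), with summed levels of 49798 and 153712 in the control and 73152 and 42280 in the cKO libraries. Neutrophil markers summed to 201728 and 89745 against 96118 and 163448, and B and plasma cell markers to 12356 and 7011 against 16992 and 19645. Eosinophil markers summed to 22168 and 4074 against 13543 and 25254, with control replicate 2 lowest for 8 of 8. T and NK cell markers were above both controls in both cKO libraries for 7 of 8, against 19.2% of all genes. Their sums were 10073 and 7292 against 12434 and 11955. The largest part was the remaining marker, Nkg7, with 8474 and 4671 against 4975 and 6616. Of 7 stromal and osteolineage markers 4 were below both (Col1a1, Col1a2, Sparc and Bglap), against 19.5% of all genes. Lepr was above both, and Kitl and Cxcl12 overlapped. The sums of these 7 were 21122 and 20090 against 4813 and 9333. Dissociation stress genes, induced when tissue is dispersed, were lower in the cKO group (log2 fold change below 0 for 12 of 12), with sums of 15243 and 19678 against 5573 and 7553. In a bulk sample, fewer cells of a type and less RNA per cell cannot be told apart.

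The mitochondrial genes were set apart by 1 library, which is a control. Control replicate 2 was the highest library for all 13, at 6.48 to 17.4 times the mean of the other libraries (median 8.33). The upper part of this range came from 6 genes of low and uncertain level described below (7.19 to 17.4, median 13.2). The other 7 genes were at 6.48 to 8.46 (median 7.55). Values are normalized counts, that is reads scaled by the size factor of their library. A log2 fold change is the cKO mean minus the control mean of log2(normalized count + 1), from limma fitted over all tested genes, and understates the change of genes with few counts.

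mt-Co1, the catalytic subunit of complex IV, had 179813 and 1369330 normalized counts in the control and 176313 and 153908 in the cKO libraries (log2 fold change -1.59, SE 0.83; limma, Benjamini-Hochberg adjusted p = 0.756). Control replicate 1 was close to cKO replicate 1. Without control replicate 2 the log2 fold change was -0.13, with the lone control assumed to vary like the other group.

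mt-Cytb, the only complex III subunit of this genome and the site of ubiquinol oxidation, had 62794 and 477450 in the control and 72759 and 58125 in the cKO libraries (log2 fold change -1.41, SE 0.81). Control replicate 1 lay between the cKO values, and control replicate 2 far above them. mt-Nd1, a complex I subunit next to the ubiquinone site, had 52711 and 403457 against 50762 and 41884 (-1.66, SE 0.80). Its cKO values were both below both control values, the nearest pair by a small margin.

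The proton-pumping complex I subunits of the mitochondrial genome had the same order of libraries. mt-Nd2 had 22630 and 178203 in the control and 29202 and 18976 in the cKO libraries. mt-Nd4 had 29273 and 214324 against 32496 and 27155, and mt-Nd5 had 31480 and 296095 against 46829 and 26738. For each of the 3, cKO replicate 1 was above control replicate 1 and cKO replicate 2 below it. mt-Nd6, which alone among these genes is read from the light strand, had 13824 and 90534 against 14736 and 13364, so the excess in control replicate 2 was present on both strands as annotated. The strand setting of the counting was not stated in the sources used here.

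**Figure D1:**
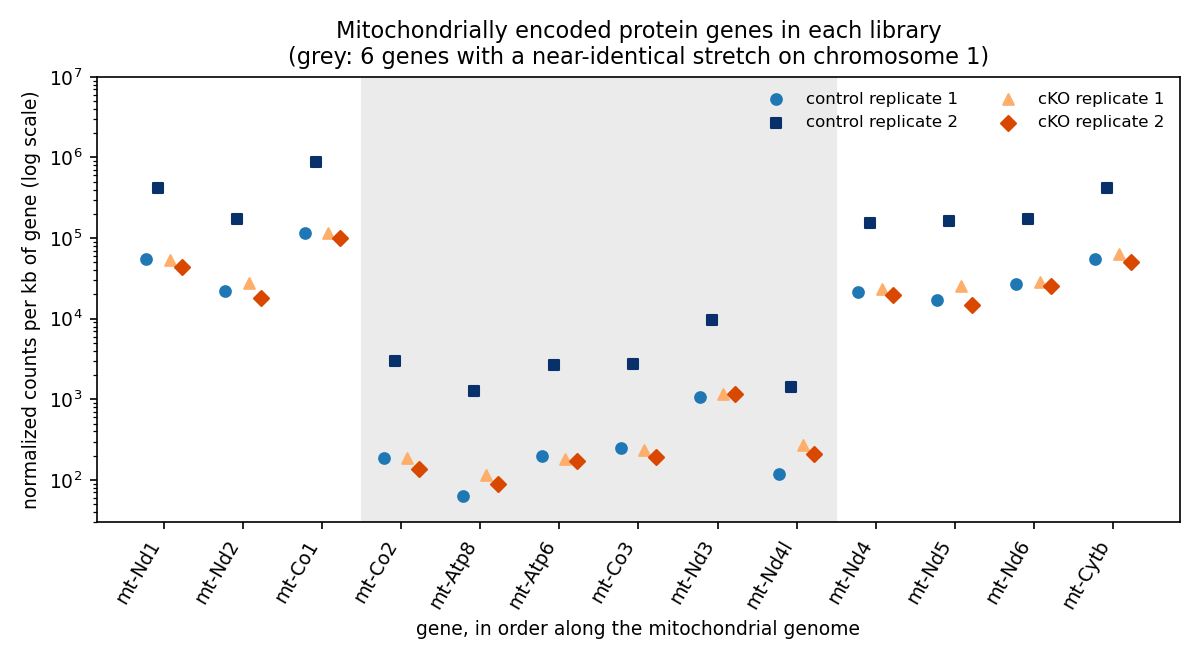
Normalized counts per kb of gene (log axis) of the 13 mitochondrial protein genes, in their order along the genome, with 1 point per library. Control replicate 2 lies above the other 3 libraries at every gene, and the 6 genes in the grey band have means of 382.7 to 3263 per kb against 54981 or more for the other 7.

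Shares within the mitochondrial protein-gene signal were close between libraries for the most abundant genes and less so for the rare ones. mt-Co1 made up 45.7% and 45.1% of the mitochondrial protein-gene signal in the control and 41.6% and 45.1% in the cKO libraries. mt-Cytb made up 16.0% and 15.7% against 17.2% and 17.0%, and mt-Nd1 13.4% and 13.3% against 12.0% and 12.3%. mt-Nd5 had 8.002% and 9.74% in the control and 11.04% and 7.84% in the cKO libraries. Among the rare genes, mt-Co2, mt-Co3, mt-Atp6 and mt-Atp8 had their largest share in control replicate 2, but mt-Nd3 and mt-Nd4l in a cKO library. mt-Co2 had 0.0329% and 0.0667% in the control and 0.0300% and 0.0276% in the cKO libraries. mt-Nd4l had 0.0089% and 0.0140% against 0.0190% and 0.0182%. These shares do not depend on the size factors.

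A contiguous block of 6 genes had far lower levels than its neighbours. Per kb of gene, mt-Co2, mt-Atp8, mt-Atp6, mt-Co3, mt-Nd3 and mt-Nd4l had means of 382.7 to 3263 normalized counts, while the 7 others had 54981 to 304104. Together the 6 took 0.225%, 0.331%, 0.223% and 0.248% of the reads on mitochondrial protein genes in control replicates 1 and 2 and cKO replicates 1 and 2. mt-Co2, which receives electrons from cytochrome c, had 129.3 and 2028 in the control and 127.2 and 94.21 in the cKO libraries, although it encodes a subunit of the same complex as mt-Co1.

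The block coincides with a stretch of nuclear DNA that is almost identical to it. In GENCODE M21 (GRCm38), 7 pseudogenes lie side by side on the minus strand of chromosome 1, chr1:24611535-24616197, over 4663 bases. Gm28661 matched mt-Co2 at 100% over 681 bases, Gm10925 matched mt-Atp6 at 100% over 678, Gm28437 matched mt-Co3 at 100% over 783 and Gm10222 matched mt-Nd4l at 100% over 294. Gm28438 matched mt-Nd3 at 99.7% over 345 bases. The gap between the copies of mt-Co2 and mt-Atp6 was 233 bases, against 230 in the mitochondrial genome, where mt-Atp8 lies. The stretch also held the last 483 bases of mt-Co1 (Gm29216, 99.8%) and the first 876 of the 1378 bases of mt-Nd4 (Gm28439, 100%). The sequences show how close the copy is: the first 150 bases of mt-Nd3 (chrM:9459-9608, plus strand) stand beside those of Gm28438 (chr1:24612970-24613119, minus strand), with mismatches in capitals and only T3C, counted from the first base of the gene, between them.
mt-Nd3: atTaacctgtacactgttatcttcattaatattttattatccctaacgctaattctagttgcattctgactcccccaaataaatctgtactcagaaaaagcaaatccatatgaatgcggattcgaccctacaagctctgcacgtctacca
Gm28438: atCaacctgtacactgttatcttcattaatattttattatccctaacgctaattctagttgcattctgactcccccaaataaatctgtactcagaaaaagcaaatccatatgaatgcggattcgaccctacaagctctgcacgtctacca

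A copy alone does not mark the block: mt-Co1, outside it and at the highest level, has a full-length copy, Gm13340, at 97.6% over 1545 bases, with 64.6 and 396 normalized counts in the control and 23.3 and 27.6 in the cKO libraries. For another gene outside the block, mt-Cytb, the closest annotated copy that covered most of the gene was Gm11410 on chromosome 4, at 92.9% over 1142 bases. In bases 2 to 151 of the gene (chrM:14146-14295, plus strand) and of the copy (chr4:80003990-80004139, plus strand), 10 bases differ and are in capitals.
mt-Cytb: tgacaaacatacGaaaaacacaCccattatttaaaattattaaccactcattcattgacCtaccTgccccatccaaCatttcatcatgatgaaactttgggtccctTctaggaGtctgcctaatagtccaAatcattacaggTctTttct
Gm11410: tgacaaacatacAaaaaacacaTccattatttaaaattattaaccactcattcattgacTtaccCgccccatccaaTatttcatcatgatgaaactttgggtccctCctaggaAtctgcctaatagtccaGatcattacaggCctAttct

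The chromosome 1 copies carried counts of their own. Gm10925 had 67.4 and 671 in the control and 98.1 and 93.1 in the cKO libraries, next to 133.9 and 1809 against 124.9 and 116.0 for mt-Atp6 itself. Gm28661 had 92.3 and 609 against 92.2 and 93.1. Control replicate 2 was therefore the highest library for these copies also. Adding each copy to its gene gave means of 591.6 to 3383 per kb for the 5 genes with a copy covering almost the whole gene, still below the neighbours. How reads that match both places were handled was not stated in the sources used here, so the levels of the 6 genes are uncertain and were not compared with other genes further. The same uncertainty holds for the parts of mt-Co1 and mt-Nd4 that lie in the stretch. mt-Atp8 and mt-Atp6, and mt-Nd4l and mt-Nd4, also overlap each other.

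Within the block, too, the excess was in control replicate 2. mt-Co3, a structural subunit of complex IV, had 197.6 and 2173 against 182.1 and 150.5, and mt-Nd3, a small complex I subunit, had 374.8 and 3357 against 406.2 and 404.4. mt-Nd4l had 35.08 and 425.9 against 80.55 and 62.04, and mt-Atp8, a small stator subunit of the ATP synthase, had 12.93 and 257.6 against 23.35 and 18.38. Control replicate 1 was the lowest library for mt-Nd4l and mt-Atp8.

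Set against the nuclear subunits of the same complexes, the mitochondrial genes stood apart in 1 library. They took 1.09% (Wilson 95% interval 1.084 to 1.090) and 8.16% (8.157 to 8.173) of the reads in the control and 1.26% (1.255 to 1.263) and 0.989% (0.985 to 0.992) in the cKO libraries. The intervals cover counting error only. The 82 nuclear genes took 1.07% and 1.14% in the control and 0.984% and 1.09% in the cKO libraries.

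The ratio of mitochondrial to nuclear subunit signal, which does not depend on the size factor, was 1.02 and 7.15 in the control and 1.28 and 0.910 in the cKO libraries. On the log2 scale the group difference was -1.32 (exact permutation test, two-sided, p = 0.67), and 2 against 2 libraries cannot give an exact p below 0.33. Without control replicate 2 the difference was 0.09, with the opposite sign. Control replicate 2 was also the library with the most reads, the most erythroid and the least Mpo and eosinophil marker signal, and their part in the ratio was not tested.

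None of the 95 genes passed the test in either direction with limma and Benjamini-Hochberg adjustment over all genes, where 0.0723% of the 16598 tested genes passed (0.0301% higher and 0.0422% lower in cKO). The smallest adjusted p among the members was 0.756. An unadjusted p under 0.05 was given to 3 members, Ndufs7, Ndufa5 and Atp5g3, against 6.1% of all genes. edgeR on the recovered reads called 0 members against 0.0728% of all genes, with 15 at an unadjusted p under 0.05 against 6.21%. DESeq2 called 0 against 0.642%, with 12 at an unadjusted p under 0.05 against 7.21%. With control replicate 1 left out, 18 members were called lower, all 13 mitochondrial genes and 5 nuclear ones (Ndufa2, Ndufa5, Ndufs7, Uqcrh and Cox7c), where 0.975% of all genes were. In that fit the lone control library is control replicate 2.

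Most nuclear subunit genes had slightly lower values in the cKO group. The log2 fold change was below 0 for 71 of the 82 genes, against 8174 of all 16598, and the median was -0.26, against 0.01 for all genes. Short transcripts had lower medians in general: all tested nuclear protein-coding genes had -0.20 up to 600 bases and -0.21 from 600 to 1000. The subunit genes had -0.22 (27 genes) and -0.33 (26) in these classes. From 1000 to 2000 bases the medians were -0.14 for all and -0.24 for subunit genes (19), and from 2000 to 4000 they were -0.01 and -0.06 (5). Both cKO libraries were below both control libraries for 40 of the 82 nuclear genes (48.8%), on a background of 19.5% of all genes. They were above both for 1 gene, Sdha, on a background of 19.2%.

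These differences came from both ends. Control replicate 2 was the highest library for 60 of the 82 genes (73.2%, against 33.98% of all genes), and cKO replicate 1 was the lowest for 61 (74.4%, against 27.5%). Relative to control replicate 1, the median nuclear gene was at 1.17 in control replicate 2, at 0.848 in cKO replicate 1 and at 0.973 in cKO replicate 2. The last of these was therefore close to control replicate 1. With control replicate 2 left out, the median log2 fold change was -0.15, and the mean of the cKO libraries was below control replicate 1 for 69 of the 82 genes (84.1%, against 49.9% of all genes).

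**Figure D2:**
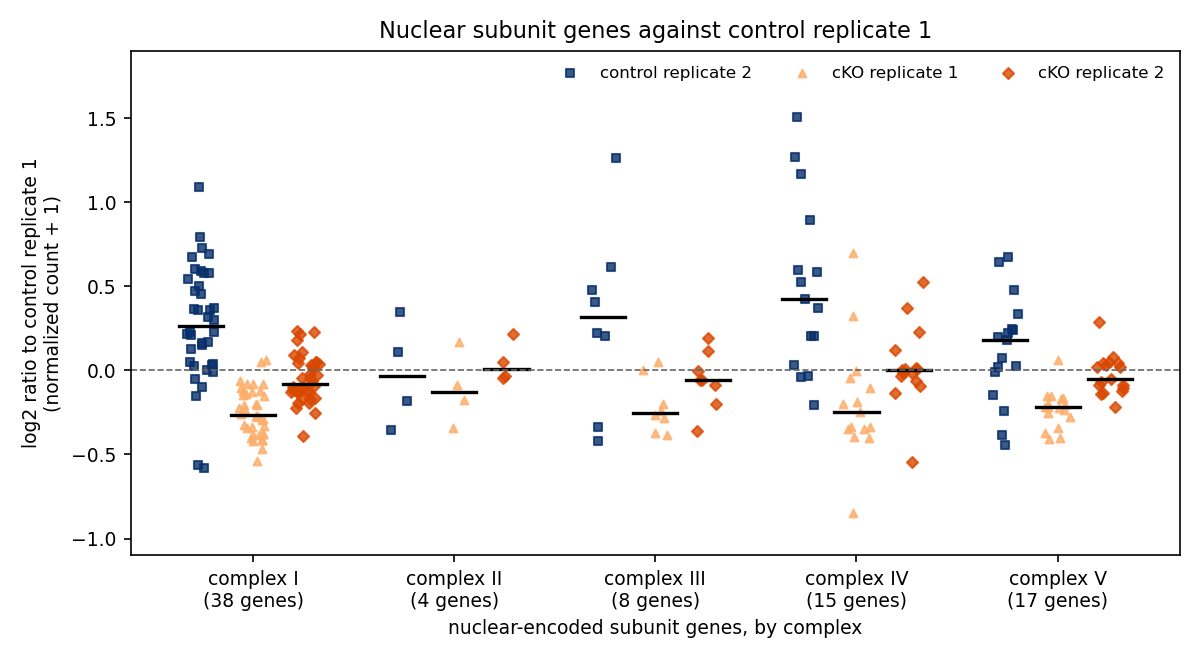
Log2 ratio of each nuclear subunit gene to its value in control replicate 1, by complex, with 1 point per gene and a black bar at the median of each library. Control replicate 2 lies above 0 at the median in complexes I, III, IV and V, cKO replicate 1 lies below 0 at every complex, and cKO replicate 2 lies near 0.

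Complex I, the NADH dehydrogenase, had the highest share of genes without overlap between the groups (57.9%). Both cKO libraries were below both control libraries for 22 of its 38 nuclear genes, against 19.5% of all genes. They were above both for 0, against 19.2% of all genes, and the median log2 fold change was -0.27. The core subunits, which hold the flavin and iron-sulfur clusters, and the accessory subunits had like values. Of the 7 nuclear core genes 5 were below, with a median of -0.28, and of the 31 accessory genes 17, with a median of -0.27. This grouping was made after the values were seen.

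Ndufs7, a core subunit with the iron-sulfur cluster that hands electrons to ubiquinone, had 3310 and 5344 normalized counts in the control and 2476 and 2890 in the cKO libraries (log2 fold change -0.65, SE 0.26; limma, Benjamini-Hochberg adjusted p = 0.756). The groups did not overlap, and the spread between the control libraries was wider than the gap between the groups. Without control replicate 2 its log2 fold change was -0.31.

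Ndufv1, which binds the flavin that oxidises NADH, had 4926 and 5039 in the control and 3724 and 4543 in the cKO libraries (-0.28, SE 0.19). Its control values were nearly equal, and both cKO values lay under them. Ndufs8, another iron-sulfur subunit, had 2922 and 1955 against 2322 and 2666 (0.06, SE 0.24), with control replicate 2 as its lowest library. Ndufs1, which carries iron-sulfur clusters of the NADH-oxidising arm, had 4800 and 4892 against 4543 and 4389 (-0.12, SE 0.18), a small shift without overlap.

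Among the accessory subunits, Ndufa5 had 1326 and 2197 in the control and 1014 and 1112 in the cKO libraries (-0.68, SE 0.27), and Ndufb10, of the membrane arm, had 3303 and 4679 against 2478 and 3046 (-0.52, SE 0.23). In both, cKO replicate 1 was lowest and control replicate 2 highest. Ndufa2 had the largest excess in control replicate 2 of the complex, with 1783 and 3797 against 1614 and 1630 (-0.68, SE 0.34). Ndufc1 differed from this order: its control values were 1055 and 1057 and its cKO values 806.7 and 804.2 (-0.39, SE 0.21), so that the libraries of each group were almost equal. Ndufc1 was picked out after its values were seen. Ndufa4 had 4844 and 6216 against 4585 and 5497 (-0.13, SE 0.21), with overlap.

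Complex II, succinate dehydrogenase, which also works in the tricarboxylic acid cycle, had values nearer to 0 than the other complexes. Its median log2 fold change was -0.07 over 4 genes. Sdha, the flavin-bearing catalytic subunit, had 11445 and 10098 in the control and 12881 and 13280 in the cKO libraries (0.28, SE 0.19, 95% interval -0.16 to 0.72; limma, Benjamini-Hochberg adjusted p = 0.766). It was the only nuclear member with both cKO libraries above both control libraries, and it stayed above 0 with each library left out in turn (0.19 to 0.37).

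The other subunits of the complex each had their own order of libraries. Sdhb, the iron-sulfur subunit, had 4116 and 3220 against 3243 and 3984 (-0.02, SE 0.21), with overlap. The membrane anchors Sdhc and Sdhd had 4633 and 4995 against 4361 and 4518 (-0.12, SE 0.18) and 5771 and 7349 against 5107 and 5965 (-0.24, SE 0.21). Only Sdhc of the 2 anchors had groups without overlap. Complex II made up 6.70% and 6.04% of the nuclear subunit signal in the control and 7.72% and 7.41% in the cKO libraries, a difference of 1.20 percentage points. The groups did not overlap, and the exact permutation p was 0.33, the smallest possible here (0.825 with Benjamini-Hochberg adjustment over the 5 complexes).

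Complex III had groups without overlap, cKO lower, for 4 of 8 genes (50%, against 19.5% of all genes). These were Uqcr10, Uqcr11, Uqcrfs1 and Uqcrq, and the median of the complex was -0.34. Uqcr11, a small accessory subunit, had 2491 and 3300 in the control and 2171 and 1936 in the cKO libraries (-0.48, SE 0.21), with cKO replicate 2 lowest. Uqcrq, which lies against cytochrome b, had 2909 and 4454 against 2251 and 2895 (-0.50, SE 0.26), and Uqcr10 had 2090 and 2915 against 1718 and 2006 (-0.41, SE 0.23). For Uqcrq and Uqcr10, control replicate 1 and cKO replicate 2 were almost equal.

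Uqcrfs1, the Rieske iron-sulfur protein that passes electrons to cytochrome c1, had 4707 and 5421 against 3915 and 4431 (-0.28, SE 0.19). The large core proteins had another order: Uqcrc1 had 10762 and 8515 against 8244 and 9370 (-0.12, SE 0.21) and Uqcrc2 7623 and 5704 against 6454 and 7312 (0.06, SE 0.21). In both, control replicate 1 was highest and the groups overlapped. Uqcrh, the hinge protein, had 3780 and 9056 against 3780 and 4092 (-0.57, SE 0.37), and only control replicate 2 stood apart.

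Complex IV, cytochrome c oxidase, had groups without overlap, cKO lower, for 7 of 15 genes (46.7%, against 19.5% of all genes). Its median was -0.32. Cox5a, which lies beside the catalytic core, had 3868 and 5850 in the control and 2932 and 3784 in the cKO libraries (-0.51, SE 0.25). Cox4i1, the common form of the largest nuclear subunit and a site where ATP regulates the enzyme, had 13123 and 19709 against 10408 and 12572 (-0.49, SE 0.25). Cox7c had 3500 and 6508 against 3257 and 3527 (-0.49, SE 0.29). For Cox7c control replicate 1 lay between the cKO values, while for Cox5a and Cox4i1 both cKO libraries were lower than control replicate 1.

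Subunits of this complex exist in tissue forms, and the common forms dominated. Per kb of transcript Cox4i1 had a mean of 18729 normalized counts and Cox4i2, the form of lung and hypoxic tissue, 79.5. Cox4i2 had 43.39 and 98.9 in the control and 32.69 and 56.29 in the cKO libraries (-0.60, SE 0.63). Cox6b2, the testis form, had a mean of 2191 per kb against 8516 for Cox6b1, with 748.8 and 1802 against 1216 and 1080 counts (-0.02, SE 0.39). Both cKO values of Cox6b2 lay between the control values.

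Cox6b1 had 5362 and 6167 against 4211 and 5312 (-0.28, SE 0.20), and Cox6a1, the common form of its subunit, had 7610 and 7790 against 6017 and 6930 (-0.25, SE 0.18). Both had groups without overlap. Cox7a1, the heart and muscle form, had 32.31 and 27.92 against 17.51 and 21.83 (-0.59, SE 0.68), a mean of 63.3 per kb against 3452 for Cox7a2, the common form. Cox7a2 had 2358 and 2295 against 2072 and 2375 (-0.07, SE 0.19) with overlap. Cox7a2l, a factor of respiratory supercomplexes, had 6038 and 7800 against 5263 and 5966 (-0.29, SE 0.21), and Cox8a, the common form, had 6024 and 8088 against 5826 and 6558 (-0.18, SE 0.21).

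Complex V held the most abundant nuclear members and the smallest share of genes without overlap in either direction. Both cKO libraries were below both control libraries for 6 of 17 genes (35.3%, against 19.5% of all genes). They were above both for 0, against 19.2% of all genes, and the median was -0.21. The summed signal of the F1 head, where ATP is made, and that of the rest of the enzyme differed in their order of libraries. Of the 5 F1 genes (Atp5a1, Atp5b, Atp5c1, Atp5d and Atp5e) 1 had both cKO libraries below both control libraries, with a median of -0.03, and of the 12 others 5, with a median of -0.22. The F1 genes summed to 108306 and 88631 in the control and 92895 and 101628 in the cKO libraries, and the others to 57281 and 68217 against 47083 and 54905. By these sums, control replicate 2 was the lowest library for the F1 head and the highest for the rest. Single genes did not all follow: it was lowest for Atp5a1, Atp5b and Atp5c1, but highest for Atp5e and neither for Atp5d. Outside the head it was not the highest library for Atp5o and Atp5mpl. The grouping into head and rest was made after the values were seen, and the difference was not tested.

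Atp5b, the catalytic beta subunit, had 48462 and 37104 in the control and 42080 and 43989 in the cKO libraries (0.02, SE 0.24), with both cKO values between the control values. Atp5a1, the alpha subunit, had 41190 and 34893 against 35284 and 39308 (-0.03, SE 0.23), again within the control range. Atp5e, the small epsilon subunit of the head, had 3431 and 3942 against 2952 and 3228 (-0.25, SE 0.19).

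The c subunit, whose ring turns in the membrane as protons pass, comes from 3 genes for 1 mature protein. Atp5g3 had 9642 and 13404 against 7293 and 8297 (-0.55, SE 0.22; limma, Benjamini-Hochberg adjusted p = 0.756), and Atp5g1 had 5867 and 6656 against 4422 and 5447 (-0.35, SE 0.20). Neither overlapped between the groups. Atp5g2 had 4828 and 5078 against 4313 and 4980 (-0.10, SE 0.18), with overlap, and its counts are uncertain because an annotated copy matches its transcript at 100%. Atp5pb, a part of the peripheral stalk, had 10714 and 13514 against 8270 and 9757 (-0.42, SE 0.21), with no overlap.

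The group means of the shares of nuclear subunit signal differed by -1.45 percentage points for complex I, -1.55 for complex IV and 2.19 for complex V, each more than for complex II, with 1 control library at a distance from the other 3 libraries. Complex I made up 25.5% and 28.2% in the control and 25.2% and 25.6% in the cKO libraries, complex IV 15.7% and 19.0% against 15.6% and 16.0%, and complex V 42.7% and 36.9% against 42.2% and 41.8%. That library was control replicate 2 in all 3 complexes, and the exact permutation p was 0.67, 0.67 and 1. Complex III made up 9.40% and 9.82% against 9.25% and 9.18%, without overlap (exact permutation p = 0.33). The Benjamini-Hochberg adjusted p for complex III was 0.825.

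**Figure D3:**
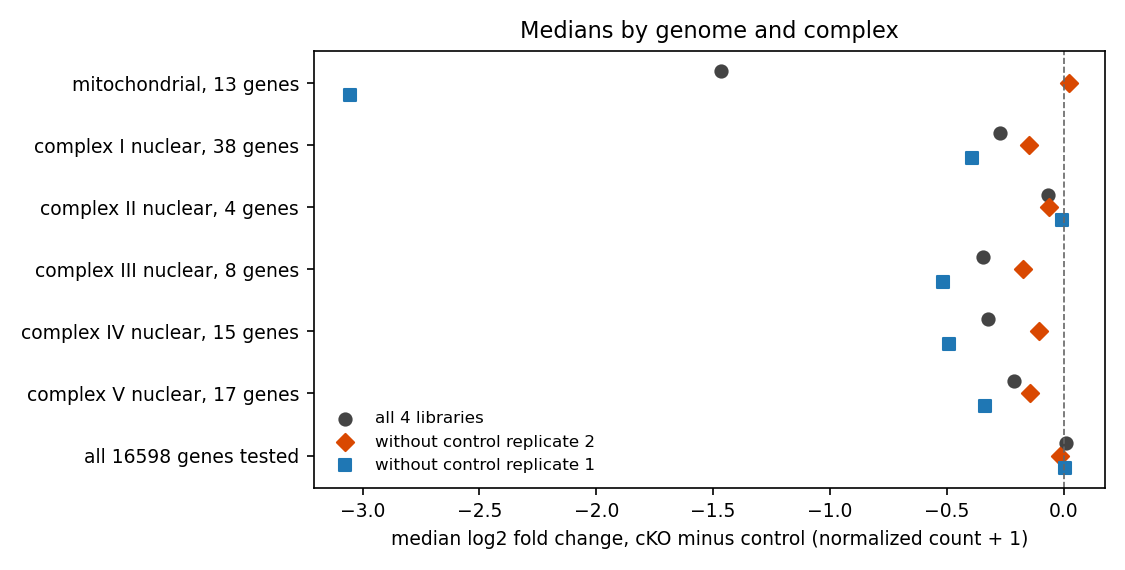
Median log2 fold change, cKO minus control, of the mitochondrial genes, of the nuclear genes of each complex and of all tested genes, with all libraries and without either control library. The mitochondrial median moves from -1.47 to 0.02 without control replicate 2 and to -3.06 without control replicate 1, while the nuclear medians stay below 0.

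The medians of the nuclear complexes stayed below 0 whichever control library was left out. Without control replicate 2 they were -0.15 for complex I, -0.06 for II, -0.17 for III, -0.11 for IV and -0.15 for V, and without control replicate 1 they were -0.39, -0.01, -0.52, -0.49 and -0.33. The mitochondrial median was 0.02 and -3.06 in these fits. With all libraries it was -2.19 with edgeR and -2.20 with DESeq2, against -1.47 with limma. Without cKO replicate 1 the complex II median was 0.02 and the others stayed below 0. The genomes thus differed in how far their medians rested on 1 library. Without control replicate 2, some marker lists also differed between the groups in their medians. These were dissociation stress genes (-1.58), stromal and osteolineage markers (-1.67) and T and NK cell markers (2.31). Lepr, Kitl and Cxcl12 (1.08, 1.15 and 0.24) and Nkg7 (-0.56) went against the medians of their lists. The part of these lists in the nuclear medians was not tested.

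Of the nuclear members 3 are X-linked (Ndufa1, Ndufb11 and Cox7b), and the groups differ in sex. Ndufa1 had 1414 and 2133 in the control and 1291 and 1256 in the cKO libraries, Ndufb11 4084 and 4218 against 3265 and 4398, and Cox7b 3094 and 3026 against 3089 and 3117. Both cKO libraries were above both control libraries for 0 of the 3, against 19.2% of all genes, and below both for 1, against 19.5%. So few genes cannot show whether sex has a part in the values, which was not tested.

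Subunit transcripts are short, and control replicate 2 had more signal for short transcripts in general. The nuclear members had a median transcript length of 729.5 bases, against 2769 for all tested nuclear protein-coding genes (GENCODE M21). Across all these genes, the median log2 ratio of control replicate 2 to the mean of the other 3 libraries was 0.30 up to 600 bases, 0.24 from 600 to 1000, 0.13 from 1000 to 2000, -0.02 from 2000 to 4000 and -0.20 above. For the members the first 4 values were 0.34 (27 genes), 0.36 (26), 0.20 (19) and 0.03 (5). Longer members had lower values from 1000 bases on, and the member medians lay above those of all genes in each of these 4 classes. The 1 member above 4000 bases was at 0.34.

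Across genes, which are not independent replicates, length and this log2 ratio had a Spearman rho of -0.31 over 78 members and -0.26 over 12972 genes. Between the cKO mean and control replicate 1 the members had medians of -0.06, -0.18, -0.17 and -0.07 in the same length classes, and all genes -0.05, -0.11, -0.10 and -0.04. Above 4000 bases the 1 member was at -0.25 and all genes at 0.10. Over all lengths, rho for this second ratio was -0.21 for the members and 0.22 for all genes, of opposite sign. The part of transcript length in the differences between the groups was not tested.

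**Figure D4:**
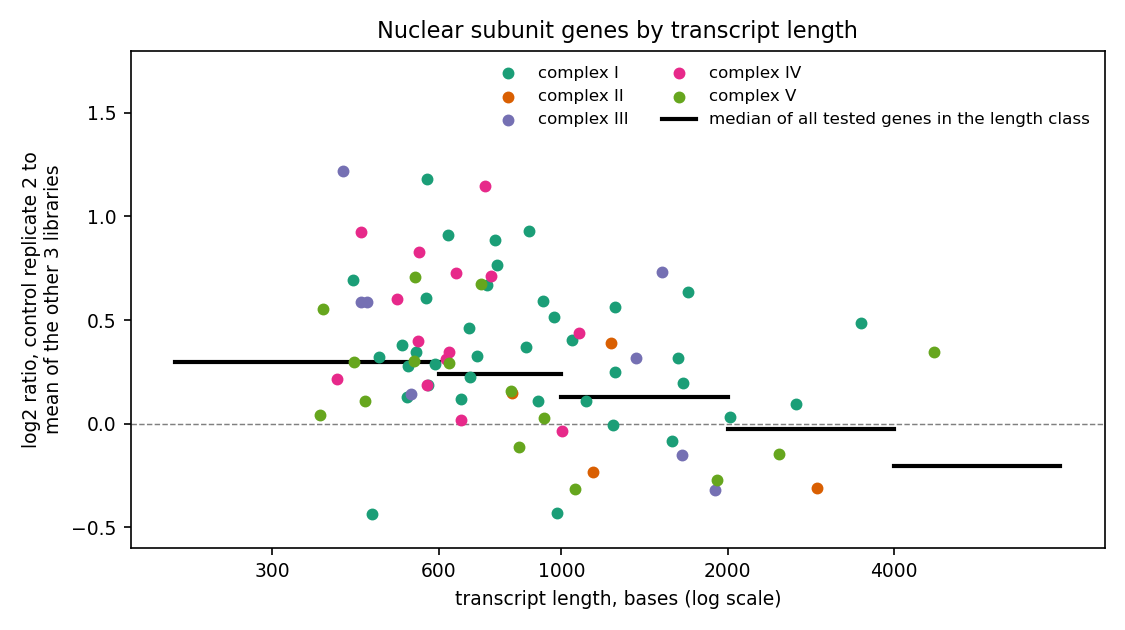
Log2 ratio of control replicate 2 to the mean of the other 3 libraries against transcript length (log axis) for 78 nuclear subunit genes, 1 point per gene coloured by complex, with black lines at the median of all tested genes in each length class. The medians of members and of all genes are 0.34 and 0.30 up to 600 bases and 0.03 and -0.02 between 2000 and 4000.

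The promoters of some nuclear members hold motif letters that the choice by symbol did not use. Their shares were not tested against the backgrounds. In RefSeq windows from 250 bases before to 50 after the start (GRCm38.p6), 68 of the 82 genes were matched. The letters GCGCANGCG, a form of the NRF1 site, were present on either strand in 20 of the 68 (29.41%), against 7.034% of the 27025 symbols with a promoter there and 14.13% of the 11262 of these that are in the deposited table. The second background was added after the shares were seen. CCGGAAG, a form of the ETS site, was present in 17 (25%, against 9.928% and 19.06%) and AANATGGCG, a form of the YY1 site, in 10 (14.71%, against 2.764% and 5.576%). At least 1 of these 3 was present in 39 members (57.35%, against 17.21% and 33.22%), and the CCAAT letters, searched in the same way, were in 42.65% against 41.06% and 42.7%. NRF1 and ETS-family factors are known regulators of respiratory genes, and a match is a description of letters only. The CANNTG letters of an E-box were in 69.12% against 74.99% and 68.19%. Members with and without the NRF1 letters had median log2 fold changes of -0.25 and -0.26.

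The 120 bases before the start site of 4 members that hold the NRF1 letters (capitals, either strand) are shown to let the motif be compared between complexes. They are the members with the highest mean count among those with the letters wholly before the start, 1 gene for each of complexes I, II, IV and V. All are on the minus strand: Ndufa8 at chr2:36049339-36049458, Sdha at chr13:74350241-74350360, Cox6a1 at chr5:115348959-115349078 and Atp5c1 at chr2:10080433-10080552.
Ndufa8: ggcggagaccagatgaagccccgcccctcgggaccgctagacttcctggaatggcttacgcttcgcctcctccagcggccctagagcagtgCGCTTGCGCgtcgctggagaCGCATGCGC
Sdha: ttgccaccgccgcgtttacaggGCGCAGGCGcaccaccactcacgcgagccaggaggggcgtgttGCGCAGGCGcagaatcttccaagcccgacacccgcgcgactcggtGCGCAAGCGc
Cox6a1: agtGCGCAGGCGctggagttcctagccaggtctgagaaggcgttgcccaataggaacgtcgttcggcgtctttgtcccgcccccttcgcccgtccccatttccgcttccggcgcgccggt
Atp5c1: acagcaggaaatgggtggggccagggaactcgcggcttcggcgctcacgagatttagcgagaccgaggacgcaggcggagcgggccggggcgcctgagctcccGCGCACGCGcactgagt

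Sdha holds the letters at 3 places within 120 bases. Of the 4 genes, Ndufa8 and Cox6a1 had the same order of libraries, while Sdha and Atp5c1 each had another. Ndufa8, an accessory subunit of complex I, had 2874 and 3222 in the control and 2157 and 2460 in the cKO libraries (-0.40, SE 0.19). Cox6a1 had 7610 and 7790 against 6017 and 6930 (-0.25, SE 0.18). Sdha had higher cKO values, as above, and Atp5c1, the rotating gamma subunit of the ATP synthase, had 9418 and 6934 against 7426 and 9089 (0.02, SE 0.22). The log2 fold changes of Ndufa8 and Cox6a1 were negative and those of Sdha and Atp5c1 positive, that of Atp5c1 being smaller than its SE. The part of the letters in these values was not tested.

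Genes that build or serve the complexes had medians near those of the nuclear subunits or closer to 0, and none of their tested members passed the limma test. Of 18 complex I assembly factors 13 had a log2 fold change below 0 (median -0.22), and of 36 tested factors of complexes II to V 30 had (median -0.17). Sdhaf1, which inserts iron-sulfur clusters into complex II, had 320 and 620 in the control and 228 and 258 in the cKO libraries (-0.87, SE 0.37). Atpaf2, which helps assemble the F1 head, had 1694 and 2461 against 1340 and 1521 (-0.52, SE 0.24). Neither had overlap between the groups.

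The electron and nucleotide carriers had a median of -0.18 (8 of 10 below 0). Cycs, cytochrome c, had 5688 and 4899 in the control and 3789 and 4853 in the cKO libraries (-0.30, SE 0.21), so here control replicate 1 was highest. The tricarboxylic acid cycle enzymes had a median of -0.03 (8 of 14 below 0), and Cs, citrate synthase, had 10086 and 10342 against 8372 and 9147 (-0.22, SE 0.18), without overlap.

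Genes that maintain and transcribe mitochondrial DNA had a median of -0.09 (12 of 18 below 0), and those that process mitochondrial RNA a median of -0.14 (15 of 21). Tfam, which packages mitochondrial DNA and starts its transcription, had 2373 and 2608 in the control and 2156 and 2472 in the cKO libraries (-0.11, SE 0.19). Its values lay close together, with control replicate 2 highest. That library was the highest for 13 of the 18 maintenance genes (72.2%) and for 11 of the 21 processing genes (52.4%), against 33.98% of all genes. Tbrg4, an RNA-stabilising protein of mitochondria, had 5156 and 5910 against 3983 and 4035 (-0.46, SE 0.18), without overlap. Tfam was picked out after its values were seen.

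The nuclear regulators of respiratory genes had a median of -0.05 (7 of 12 below 0). Esrra, a receptor that drives respiratory genes, had 1768 and 2140 in the control and 1406 and 1399 in the cKO libraries (-0.47, SE 0.20), and Gabpb2, a partner of the ETS factor GABPA, had 5610 and 4947 against 7497 and 5949 (0.34, SE 0.20). Their groups did not overlap, in opposite directions. The mitochondrial transfer RNA genes followed the mitochondrial protein genes: all 19 tested genes of the list were highest in control replicate 2, and their median was -1.89, or -0.37 without it.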

How the data were processed

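The table deposited by the authors holds a signal, namely counts of reads per gene scaled by each library's size factor with DESeq2, per the submitters' processing notes. The same notes list STAR 2.7.9a, SAMtools, featureCounts and Trim Galore 0.6.7, with build mm39. For settings, annotation and strand, the sources used here state nothing. The control columns are named as wild type in the table and were matched by group and number. Whole reads were recovered by division (100% of values within 0.1 read), with size factors of 1.08, 1.25, 0.857 and 0.870 (control 1 and 2, cKO 1 and 2). The lowest read sum of a gene was 41, so rare genes are not analysed here.

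The members and gene lists were chosen with earlier results of these data known. Groups were compared two-sided with limma 3.58.1 in R 4.3.3, using moderated variances with a mean trend, after adding 1 to each normalized count and taking log2. It covered the 16598 genes whose mean was 10 or more, and an adjusted p (Benjamini-Hochberg) under 0.05 was called. Residual degrees of freedom were 2 and prior 5.48. The steps were tested on simulated data. Each p-value sets the group difference against a variance within the groups of these 4 mice. That variance is moderated by other genes, with more prior than residual degrees of freedom. Replicates differed by more than counting noise (a chi-square of 293 per degree of freedom between the controls and of 37.7 between the cKO libraries). Named genes were all 13 mitochondrial genes, the 3 nuclear members per complex with the smallest p and the 1 with the highest mean, tissue isoforms, Sdha to Sdhd, and up to 3 genes with the smallest p per further list. A gene that this rule takes is not reported here. Others were named after their values were seen (Ndufa2, Ndufa8, Ndufc1, Ndufs1, Ndufs8, Ndufv1, Uqcrc2, Uqcrfs1, Uqcrh, Atp5a1, Atp5c1, Atp5e, the X-linked members, Tfam and the pseudogenes).

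Alternatives were other pseudocounts, filters, scalings and variance fits, edgeR 4.0.16 and DESeq2 1.42.0 on the recovered reads, a replicate block, and each library left out. Copies were found with blastn 2.17.0 against GENCODE M21 transcripts (GRCm38, another build than that of the reads, used for sequence and position only). Of 79 nuclear members with a transcript there, 8 have a copy in the table at 95% identity or more over at least 50% of the transcript (Atp5g2, Atp5h, Atp5l, Atp5o, Cox6c2, Ndufb11, Ndufs3 and Uqcrb), so their counts are uncertain.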

Additional observations from a re-analysis of the deposited data

How the results depend on the processing

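No member passed the test under any alternative that kept all 4 libraries. For all genes, the 5 called higher became 2 with a mean of at least 50, with quantile normalization or without a variance trend, 3 with the replicate number as a block, and 71 with DESeq2, which called 36 lower. The block gave 5 lower, and same-numbered libraries did not deviate together (correlation -0.0742). With 2 libraries per group, this correlation cannot decide whether the numbers pair the mice. The mitochondrial median was -2.19 with edgeR, -2.20 with DESeq2 and -1.05 with quantile normalization. Sdhb was 0.0202 with quantile normalization. Of the 66 genes named by rule, this was the only one to change sign while all libraries were kept. The cause was not tested for any of these.

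Leaving out 1 library at a time gave 4 to 231 genes called higher and 8 to 161 lower, members called lower 0 to 18, a mitochondrial median of -3.06 to 0.0217, and differences of -2.73 to 0.0878 in the log2 genome ratio, -7.04 to 0.0370 percentage points in the mitochondrial share of reads, -3.21 to 0.12 in the complex IV share and -0.73 to 5.12 in the complex V share. The upper ends of the mitochondrial and complex IV ranges and the lower end of the complex V range came without control replicate 2, and the 18 members called lower, 231 and 161 came without control replicate 1. Among the members named by rule, the log2 fold changes of 16 changed sign in these fits, with ranges as follows: mt-Nd2 -2.92 to 0.0569, mt-Nd3 -3.05 to 0.11, mt-Nd4 -2.85 to 0.0212, mt-Nd4l -2.57 to 0.99, mt-Nd5 -3.06 to 0.17, mt-Nd6 -2.69 to 0.0217, mt-Cytb -2.88 to 0.0505, mt-Atp8 -3.57 to 0.64. For the nuclear ones the ranges were: Uqcrc1 -0.29 to 0.0457, Atp5b -0.17 to 0.21, Cox6b2 -0.65 to 0.61, Cox7a2 -0.17 to 0.0295, Cox8a -0.39 to 0.0371, Ndufa4 -0.31 to 0.0516, Atp5g2 -0.20 to 0.0084, Sdhb -0.20 to 0.16. Members named after their values were seen were not in this count, and some changed sign too. The log2 ratio of the cKO mean to control replicate 1 was 0.06 for Uqcrh, -0.23 for Ndufs8, -0.15 for Uqcrc2 and -0.19 for Atp5c1. Each had the opposite sign to the log2 fold change with all libraries. Depth limits the rarest members: mt-Atp8 had 14 reads in control replicate 1, and Cox7a1 had 15 in cKO replicate 1.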
